A study of Mus musculus with 6 samples.

Results

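Antisense transcripts are RNAs whose gene lies across a protein-coding gene on the opposite DNA strand. The kidney count table listed 55450 genes, and 2959 of them carry the gene type antisense in GENCODE mouse release M21 on the GRCm38 (mm10) assembly. The antisense genes with a mean raw count of at least 50 over the 6 mice were taken, which left 573 of the 2959, and each was set beside its partner, the protein-coding gene on the other strand that shares the most exon bases with it. A partner was found for 571 members, and 560 distinct genes served as partners, 11 of them for more than 1 member. Another 928 antisense genes had no count in any mouse.

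The mice were male C57BL/6J wild type animals, bought at 7 weeks of age and acclimated for 1 week. Kidney tissue was compared between the day-0 group, a control labelled with 20% PEG (n = 3), and the day-21 group (n = 3), which received adenine at 0.16 g/kg together with potassium oxonate at 2.4 g/kg by daily gavage for 21 days. Adenine injures the tubules through crystals of its breakdown product, and potassium oxonate blocks uricase, the enzyme that degrades uric acid in mice. The model therefore combines both agents, and each mouse gave 1 library.

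Antisense transcripts can begin near the start of the opposite gene, run into its end, or lie within it. Some are known to act on their neighbour, by recruiting chromatin proteins, by transcription across its promoter or by pairing with its mRNA, and many have no known function. Reads from such a locus carry the same bases from either strand, so that only a library that keeps the strand, counted with the matching setting, can tell the partners apart. The library kit is named as TruSeq RNA, and whether strand was kept and counted is not given in the sources used here. The paper describes double-stranded cDNA made with random primers and names no step that keeps the strand. The counts of an antisense gene and its partner therefore cannot be told apart with certainty wherever their exons overlap, which holds for nearly all members and limits every value that follows.

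Parts of the shared stretches of 7 pairs are printed to show how the overlap looks at the level of bases. For each pair, at most 60 bases of the longest unbroken run within coding exon of the partner are shown. Only the run of Gm47118 (35 bases) is whole, and the other runs held from 61 bases (Gm43109) to 406 (Gm16567). These pairs include the member with the most counts, members with some of the largest falls and rises, a member that lies wholly in its partner's exons, and the pair called in opposite directions. Each sequence is the antisense gene read 5′ to 3′, capitals mark bases that lie within coding exon of the partner on the other strand, and lower-case letters are exon of the antisense gene outside any exon of the partner. The coordinates are those of the capital stretch in GRCm38. They are chr7:119472332-119472391 (plus strand) for Gm44588 over Umod, chr3:129736757-129736816 (plus) for Gm42697 over Egf, chr16:4037638-4037697 (minus) for Gm15879 over Dnase1, chr3:116128533-116128592 (plus) for Gm43109 over Vcam1, chr13:42304957-42304991 (minus) for Gm47118 over Edn1, chr6:124530947-124531006 (plus) for Gm16567 over C1s1 and chr19:6531849-6531908 (minus) for Gm14964 over Nrxn2. The Edn1 coding strand over the same bases is printed last, and it is the exact reverse complement of the capitals of Gm47118.
Gm44588: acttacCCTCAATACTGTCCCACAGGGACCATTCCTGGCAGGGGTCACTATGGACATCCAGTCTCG
Gm42697: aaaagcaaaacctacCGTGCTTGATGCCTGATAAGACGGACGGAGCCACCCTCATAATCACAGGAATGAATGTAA
Gm15879: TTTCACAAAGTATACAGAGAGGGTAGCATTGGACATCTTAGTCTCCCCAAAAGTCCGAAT
Gm43109: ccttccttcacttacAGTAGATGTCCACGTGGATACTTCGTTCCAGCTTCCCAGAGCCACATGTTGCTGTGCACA
Gm47118: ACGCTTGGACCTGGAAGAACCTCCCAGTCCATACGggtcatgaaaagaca
Gm16567: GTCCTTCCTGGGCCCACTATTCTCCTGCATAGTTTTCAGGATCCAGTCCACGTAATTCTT
Gm14964: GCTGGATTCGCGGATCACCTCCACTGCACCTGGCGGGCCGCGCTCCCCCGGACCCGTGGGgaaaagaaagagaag
Edn1: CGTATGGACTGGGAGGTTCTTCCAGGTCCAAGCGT

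The libraries held between 10963849 and 14333311 counts, and the members took between 1.73% and 1.87% of them on day 0 and between 1.60% and 1.63% on day 21. At these depths, 3 counts, taken as the smallest visible level, equalled between 0.179 and 0.309 CPM (counts as a share of the TMM-scaled library), a floor that covers counting error only. The tissue itself differed between the groups in bulk. The 5 proximal tubule markers were all lower on day 21, and their summed level ran from 17653 to 28621 CPM on day 0 and from 2785 to 4239 CPM on day 21. The 3 fibroblast markers were all higher, from a sum of between 90.7 and 121 CPM to one of between 420 and 622 CPM, and so were the 4 macrophage markers, from between 96.4 and 113 CPM to between 364 and 416 CPM. In bulk kidney, fewer cells of a type and less RNA per cell cannot be told apart, and the part of these shifts in the changes described here was not tested.

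The members were mostly modest in level. Their mean raw counts ran from 50.5 to 24481 with a median of 141, and 35 members had a mean of at least 1000. Just inside the threshold were Gm39318 at a mean of 51.0 counts and 4930599N23Rik and A130051J06Rik at 50.5 each, and just outside were 4732440D04Rik, Gm12473 and Gm4285 at 49.8 each. All 573 passed the filter on low counts. Both group means were at least 50 in 494 of them, while 66 reached the threshold through day 21 with a day-0 mean under 50, and 13 through day 0 alone.

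Having counts went with exon overlap. Of the 2959 antisense genes, 1220 had no exon base inside an exon of any gene on the opposite strand, and only 9 of these were members (0.738%), with 57.2% of the class at 0 in every mouse. Among the 76 antisense genes that lie wholly inside opposite-strand exons, 39 were members (51.3%), and 18.4% were at 0. The classes between held from 27.0% to 44.1% members. In all, 564 of the 573 members overlapped an opposite-strand exon, and 458 shared coding bases with their partner. The median member had 1232 exon bases, and the medians of its bases in partner exons were 327 bases and 27.2% of its length.

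**Figure D1:**
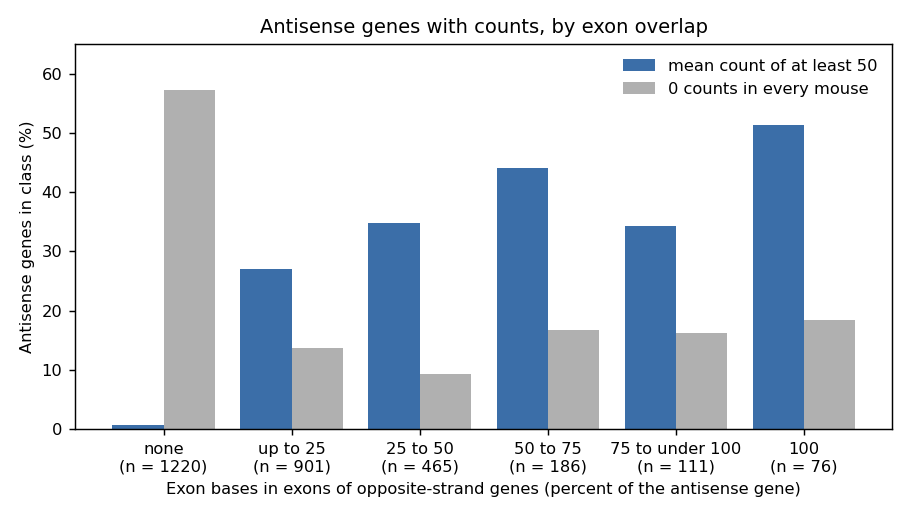
Bars give the share of antisense genes (%) with a mean count of at least 50 and the share with 0 counts in every mouse, by the percent of their exon bases that lie in exons of genes on the opposite strand, with the number of antisense genes in each class below it. Members made up 0.738% of the class without overlap and 51.3% of the class wholly inside opposite exons.

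Levels were next compared per length, as counts per exon kilobase. The median member stood at 96.4% of its partner's level per kilobase. This share was 61.9% at the median for members with up to 25% of their bases in partner exons, 96.3% for those with 25% to 50%, and 161% for those with 50% to 75%. It was 246% for members wholly inside partner exons and 82.4% for the 8 pairs without shared exon bases, so the share relative to the partner rose over the classes with overlap only. Of the 38 members that lie wholly within exons of the partner, 36 had raw counts at or under those of the partner in every mouse. Over all 560 pairs with both genes tested, this held in 512, so it is not particular to that class.

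The 6 members with the highest counts lay across genes of high level in the kidney. Gm44588 lies within Umod, the gene for uromodulin, the main secreted protein of the thick ascending limb, and shares 98.9% of its exon bases with it. It had 17538, 29960 and 21168 counts at day 0, then 21143, 29924 and 27152 at day 21, where Umod had 39784, 65772 and 44642 and then 44883, 59057 and 57858. Within each group the 3 mice had the same order of raw counts in both genes, and the groups of Gm44588 overlapped in normalized level. Neither gene passed the test, with log2 changes of -0.37 (SE 0.15, adjusted p = 0.0611) for Gm44588 and -0.45 (SE 0.14, adjusted p = 0.0271) for Umod, the second of which missed the fold of 1.5.

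The other 5 of the highest members were lower on day 21, as were their partners. Gm48702 and Ttc36, a gene for a tetratricopeptide protein, run into each other at their 3′ ends. Gm48702 had 5163, 7834 and 4325 counts on day 0, then 1681, 1849 and 1923 on day 21, beside 5104, 7919 and 4551 and then 1708, 1947 and 1917 for Ttc36. Their counts thus ran close to each other mouse by mouse, and both fell by 2.21 on the log2 scale (adjusted p = 2.82e-06 and 2.32e-06). Counts within 10% of the partner's in every mouse were found in 2 pairs. Gm17035, wholly inside exons of Ndrg1, a stress-responsive gene, fell by 0.81, and Ndrg1 fell by 0.92. Gm15396 over Napsa, the aspartic protease napsin A, fell by 1.45 beside 1.30 for Napsa. Gm15962 fell by 1.71 and Keg1 by 1.64, while Gm15441 fell by 1.11 and Txnip, an inhibitor of thioredoxin, by 0.93. With library size alone, Gm17035 (-0.43), Ndrg1 (-0.54) and Txnip (-0.53) were under the fold of 1.5 and not called.

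Across the 573 members, day 21 was compared with day 0 by edgeR's quasi-likelihood test over all 16592 genes with enough counts, and the calls required a fold above 1.5 with an adjusted p below 0.05. Among members, 221 were called (38.6%), where 35.1% of all genes tested were. The direction of the calls differed from that of all genes. Only 67 members were higher (11.7%, against 19.6% of all genes) and 154 were lower (26.9%, against 15.5%), while 352 were not called. Among all genes with a mean of at least 50 counts, 18.4% were higher and 17.1% lower. The groups did not overlap in 322 members (56.2%), against 57.1% of all genes. The median log2 change of the members was -0.15, the central range ran from -0.68 to 0.29, and the median of all genes tested was 0.03.

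The threshold on the mean let in more genes through the day-21 group than through day 0. Of the 66 members with a day-0 mean under 50, 27 were called higher and 0 lower, and of the 13 with a day-21 mean under 50, 12 were called lower and 0 higher, so these are not evidence of direction. Among members named below, the first kind includes AV064505, Gm43109, Gm13398, Gm47118, Dhx58os, Gm12426, Gm48780, Mxra8os, Chn1os3 and Tnfsf13os. The second kind includes Gm10069, Gm15848 and 3110045C21Rik. The split also hung on scaling. With library size alone as the scale, the median log2 change of all genes moved from 0.03 to 0.42, and members called higher and lower went from 67 and 154 to 153 and 84 (64.6% higher in place of 30.3%). Upper-quartile scaling moved the median of all genes to 0.12. The members' median stayed under that of all genes in each scaling, at 0.23 with library size alone, -0.07 with the upper quartile and -0.19 with RLE.

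The partners moved much as the members did. Of the 560 distinct partners, 549 were tested, and 78 were higher and 113 lower (34.8% called), with a median log2 change of -0.08. Of all genes tested, 35.1% were called, 19.6% higher and 15.5% lower, so the share of partners called was near that of all genes. In 560 pairs both genes were tested. Both were lower in 104 of these pairs and both higher in 50, which gives 154 pairs that moved in the same direction. Of the 117 pairs with a lower partner, 104 had a lower antisense gene, and of the 78 pairs with a higher partner, 50 had a higher antisense gene. A single pair was called in opposite directions, and 305 had no call in either gene.

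The size of the change was alike as well. The log2 changes of member and partner lay within a 1.5-fold difference of each other in 503 of 560 pairs (89.8%), with a median absolute difference of 0.22. Over the 560 pairs, Pearson's r between both changes was 0.91 and Spearman's rho 0.84. This is a description across pairs, which share the 6 libraries, and in most pairs share bases. The mouse with the highest level was the same for both genes in 321 pairs on day 0 and in 280 on day 21. The same count was not made for unrelated genes, so these numbers have no baseline. Where the starts of a head-to-head pair lay within 1000 bases (98 pairs), r was 0.92, beside 0.91 for the other 462 pairs.

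**Figure D2:**
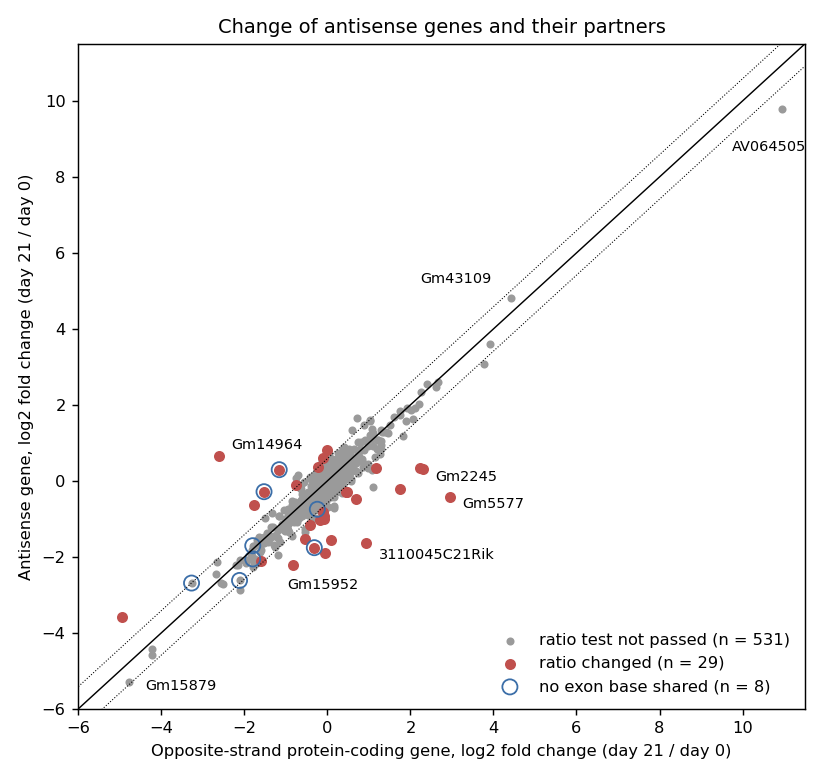
Each point is 1 of 560 pairs, with the log2 fold change (day 21 / day 0) of the protein-coding partner on the x axis and that of the antisense gene on the y axis. The solid line marks equal change and the dotted lines a 1.5-fold difference, within which 503 pairs lie. Red points are the 29 pairs whose ratio changed, and blue rings the 8 pairs that share no exon base. AV064505 and Mmp7 had 0 counts on day 0, so that their fitted values at the upper right depend on the prior count.

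The arrangement of the genes varied. Of the 571 members with a partner, 238 lie inside the partner's span, 167 meet it at the 3′ ends, 146 at the 5′ ends, and 20 contain it. In pairs with both genes tested, median log2 changes of antisense genes ran from -0.10 for tail-to-tail pairs to -0.32 for those that contain the partner. The correlation of changes ran from 0.80 (containing, 18 pairs) to 0.95 (head-to-head, 146 pairs). The head-to-head class, like the r over all pairs, takes in AV064505 and Mmp7, whose fitted values depend on the prior count. No r was computed without this pair alone. The 98 head-to-head pairs with starts within 1000 bases, with r of 0.92, do not include it.

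The largest fall was that of Gm15879, and the 8 largest ran from -5.30 to -2.69 on the log2 scale. Gm15879 (chr16:4032839-4037847, minus strand) meets Dnase1, the gene for a secreted DNA-cutting enzyme, head to head. It had 899, 2745 and 1688 counts on day 0, then 67, 63 and 65 on day 21, and Dnase1 had 1906, 5824 and 3244 and then 175, 221 and 180. All day-21 mice lay far under all day-0 mice in both genes, with the second day-0 mouse the highest for both. Gm15879 went from 163 ± 68.7 CPM to 4.16 ± 0.513 CPM (SD, n = 3 in each group), a log2 change of -5.30 (SE 0.33, adjusted p = 2.20e-06), and Dnase1 fell by 4.78 (SE 0.31, adjusted p = 2.52e-06).

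Egf, which encodes epidermal growth factor and is made in the distal tubule, is crossed by 2 members. 6330410L21Rik, at its 5′ end, had 797, 1391 and 848 counts on day 0, then 79, 55 and 49 on day 21. Gm42697, within the gene, had 1876, 2793 and 1952 and then 136, 150 and 170. Neither overlapped between groups, and Egf itself went from 16621, 27523 and 16706 counts to 1379, 1907 and 1466. The log2 changes were -4.58 (SE 0.24) for 6330410L21Rik, -4.42 (SE 0.14) for Gm42697 and -4.23 (SE 0.17) for Egf, with adjusted p-values of 1.06e-06, 7.58e-08 and 3.17e-07. These members share a partner and are not separate observations of the locus. The 3 markers of distal tubule and collecting duct were lower too, with summed levels of 894 to 1094 CPM on day 0 and 422 to 521 CPM on day 21, and their part was not tested.

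Further falls were those at genes of metabolic enzymes. Gm14764 lies within Gk, the glycerol kinase gene, and had 218, 334 and 364 counts on day 0, then 81, 45 and 59 on day 21, a fall by 2.86 on the log2 scale (adjusted p = 2.85e-05) beside 2.11 for Gk. Gm42375, which starts 117 bases from Cyp2a4, a cytochrome P450 that hydroxylates steroids, had 584, 766 and 694 counts and then 240, 94 and 117. It fell by 2.71 and Cyp2a4 by 2.52. Cyp2a4 has near-identical copies in its family, so its own reads are uncertain. B230322F03Rik, head to head with Nudt19, a hydrolase of coenzyme A, fell by 2.70 from 2250, 4711 and 5518 counts to 940, 786 and 1122, and Nudt19 fell by 2.57.

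The largest rise was that of AV064505, head to head with Mmp7, the matrix metalloproteinase matrilysin. Both genes had 0 counts in the 3 day-0 mice. AV064505 had 76, 207 and 122 counts on day 21 and Mmp7 had 179, 469 and 249, with the second mouse highest in both. Against a floor of 3 counts per library, AV064505 was at least 29.4-fold higher and Mmp7 at least 65.2-fold higher (adjusted p = 5.10e-05 and 2.03e-05).

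Gm43109 (chr3:116128451-116141016, plus strand) meets Vcam1 head to head. Vcam1 encodes an adhesion protein that holds leukocytes. Gm43109 had 38, 14 and 23 counts on day 0, then 1101, 1037 and 1019 on day 21, and every day-21 mouse lay far above every day-0 mouse. Its level went from 2.44 ± 1.33 to 67.4 ± 9.06 CPM, a log2 change of 4.81 (SE 0.29, adjusted p = 2.01e-06), and that of Vcam1 was 4.43 (SE 0.21, adjusted p = 9.01e-07). Only 61 of the 753 exon bases of Gm43109 (8.10%) lie in exons of Vcam1.

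The other large rises ran over genes of vasoconstriction, viral RNA sensing, matrix, arginine use and the immunoproteasome. Of the 8 largest rises, only Gm20496 had a day-0 mean of at least 50. The others reached the count threshold through day 21 and are not evidence of direction. Gm47118, within Edn1, the endothelin-1 gene, rose from 3, 4 and 13 counts to 79, 168 and 131, a log2 change of 3.61 (adjusted p = 0.000185) beside 3.91 for Edn1. Dhx58os, at the 3′ end of Dhx58, a sensor of viral RNA, rose from 6, 8 and 13 counts to 120, 88 and 131, by 3.07 beside 3.77. Gm12426 at Col15a1, a collagen gene, rose by 2.60 beside 2.66, and Gm48780 within Arg2, the mitochondrial arginase, by 2.54 beside 2.39. Gm20496 shares 75.1% of its exon bases with Psmb8, a subunit of the immunoproteasome. It had 122, 188 and 107 counts on day 0, then 1073, 1238 and 1055 on day 21, and Psmb8 had 131, 185 and 105 and then 1171, 1382 and 1238, so that both genes ran close in every mouse. The log2 changes were 2.46 and 2.61. Gm16567, whose sequence above lies wholly in exons of C1s1, a protease of the complement system, rose by 1.68 beside 1.61.

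**Figure D3:**
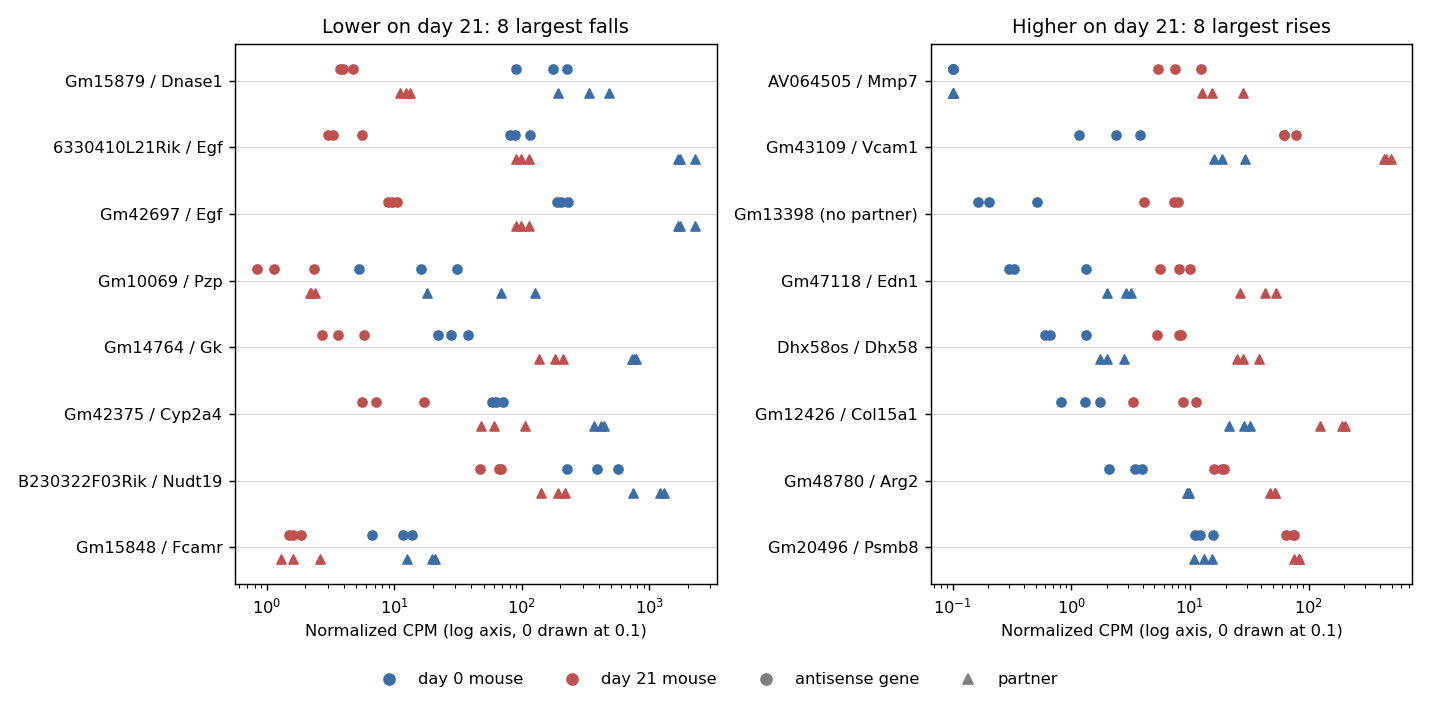
Points give the normalized CPM of each mouse on a log axis (0 drawn at 0.1) for the 8 members with the largest falls and the 8 with the largest rises, with circles for the antisense gene and triangles for its partner, blue for day 0 and red for day 21. In each of the 16 members and in each of their partners the 3 mice of one group lie apart from the 3 of the other. Gm13398 has no partner.

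Of the members, 50 carry the name of a gene with one of the suffixes searched for, such as os, and 21 of these were called, 7 higher and 14 lower, where 19.6% of all genes were higher and 15.5% lower. Kcnq1ot1 and Hoxaas3 end in suffixes that the search did not cover and are not among the 50, and neither was called. The calls are listed as descriptions of these genes. Acss2os, within the gene of an acetyl-CoA synthetase, had 599, 719 and 476 counts on day 0, then 258, 193 and 273 on day 21 and fell by 1.86 on the log2 scale (adjusted p = 2.04e-05), with Acss2 falling by 1.63. Sardhos, in the sarcosine dehydrogenase gene, fell by 1.21 (Sardh 1.36). Slc13a2os, at the citrate transporter Slc13a2 of the proximal tubule, fell by 0.94 (Slc13a2 1.17). Nphs1os, in the gene for nephrin, the podocyte slit protein, fell by 1.23 from 125, 150 and 79 counts to 66, 81 and 75 (Nphs1 0.97). Both podocyte markers were lower as well, with sums of 112 to 183 CPM and then 69.6 to 79.6 CPM, and their part was not tested. Proscos, Far1os, Nudt12os and Taco1os fell by between 0.83 and 1.35, and Efhd1os, Ppifos, Irx3os, Tbc1d22bos and Scpep1os by between 0.59 and 0.83. These last 5 together with Taco1os and Slc13a2os, 7 of the 14, were no longer called with library size alone, at log2 changes between -0.55 and -0.21. Mccc1os fell by 1.87, from 167, 212 and 150 counts to 52, 61 and 102. By shared exon bases its partner is Ccdc144b, which had at most 1 count in any mouse.

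Higher on day 21 were 7 of these named members. Among them, Mxra8os, Chn1os3, Tnfsf13os and Dhx58os had a day-0 mean under 50 and are not evidence of direction. Rbm3os, at the gene of a cold-inducible RNA-binding protein, rose by 1.07 from 211, 230 and 128 counts to 596, 566 and 596 (adjusted p = 0.000725), and Rbm3 by 1.21. Mxra8os rose by 1.62 and Mxra8, a gene of matrix remodelling, by 2.05. Junos rose by 0.84 and Jun, a subunit of the AP-1 transcription factor, by 1.29. Hoxb3os rose by 0.60 from 274, 460 and 353 counts to 662, 986 and 798 (adjusted p = 0.00796), where Hoxb3 had a change of 0.48 that missed the fold of 1.5. Chn1os3 and Tnfsf13os rose by 0.69 and 0.82 with adjusted p-values of 0.0434 and 0.0440, and Dhx58os has been given above.

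Several of these calls were near the threshold and were lost in other fits, including fits with fewer mice. The call of Hoxb3os was lost without day-0 mouse 1 (log2 change 0.45) or day-21 mouse 2 (0.50) and with RLE or DESeq2 (0.57 each). That of Junos was lost without day-0 mouse 2 (0.61) or day-21 mouse 1 (0.79). Scpep1os lost its call without day-21 mouse 2 or 3 (-0.53 each), with upper-quartile scaling (-0.51) and with the stricter filter (-0.57). Tbc1d22bos lost its call without day-0 mouse 3 (-0.73), day-21 mouse 2 (-0.64) or day-21 mouse 3 (-0.86). Tnfsf13os lost it without any of 4 mice, day-0 mice 2 (0.88) and 3 (0.64) and day-21 mice 1 (0.76) and 2 (0.68), and with RLE (0.79) or limma-voom (0.80). Chn1os3 lost it without day-0 mouse 1 (0.70) or 2 (0.52) and without any day-21 mouse (0.65 to 0.73), and also with DESeq2 (0.66, adjusted p = 0.0575) and with the replicate block (0.71, adjusted p = 0.0603).

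Partners were also grouped by symbol prefix. The counts of each list stand beside 11.7% higher and 26.9% lower over all members, and 19.6% and 15.5% over all genes. Among 12 members across metabolic enzyme genes, 11 were lower and 0 higher, with a median log2 change of -1.91, and 11 of the partner entries were lower too. The list took in Dnase1, a nuclease, and counts Acsm1 for 2 members. It included 4931431C16Rik at the acyl-CoA oxidase Acox3 (-2.16, Acox3 -1.78), Gm15883 at the cytochrome P450 Cyp2f2 (-2.14, Cyp2f2 -2.66) and 0610031O16Rik at the alcohol dehydrogenase Adh7 (-1.96, Adh7 -1.19). With library size alone as the scale, 10 of the 12 were lower. Among 25 members across transporter genes, 10 were lower and 2 higher, and this became 7 lower and 6 higher with library size alone. The lower ones included Gm49643 at the potassium channel Kcnj15 (-1.63), Gm7097 at the monocarboxylate carrier Slc16a9 (-1.55) and Gm11788 at the mitochondrial dicarboxylate carrier Slc25a10 (-1.44). Of 5 members across genes of mitochondrial proteins, 4 were lower and 0 higher, and 0 of the 5 were called with library size alone.

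Members across immune genes and matrix genes were few. Of 5 in the immune list, 2 were higher and 0 lower (4 and 0 with library size alone). The 2 were Gm11131 at the class I histocompatibility gene H2-Q4 (1.91, H2-Q4 1.91) and Gm15895 at the macrophage growth factor Il34 (1.57, Il34 1.89). H2-Q4 belongs to a family of near-identical genes and its reads are uncertain. Tnfaip2 and Irf2bp2 entered that list by prefix only and are not themselves a cytokine or an interferon regulatory factor. Of 5 in the matrix list, 2 were higher, AV064505 and Gm12426, both of which reached the count threshold through day 21. The 1 lower member was Gm48133. Its partner Col4a3bp is a lipid transfer protein and no collagen. Of 6 members across kidney transcription factors and Hox genes, Hoxb3os was higher (not called with RLE) and Irx3os lower (not called with library size alone), and Emx2os, Hoxb5os, Hoxd3os1 and Hoxaas3 were not called. With library size alone this list held 3 higher and 0 lower, and the matrix list 3 higher and 1 lower.

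The pairs that parted were found with a test of the ratio itself. For each mouse, log2 CPM of the partner was subtracted from log2 CPM of the antisense gene, and this difference was compared between days with limma's moderated test over 988 pairs, members and other antisense genes alike. The ratio changed in 41 of the 988 pairs (4.15%), 1.32% higher and 2.83% lower on day 21. Among the 560 member pairs, 29 changed (5.18%), 9 higher and 20 lower, and 131 had an unadjusted p under 0.05. In each of the 29 the ratios of the 3 mice of one day lay apart from those of the other, as they did in 27.9% of all member pairs. The antisense gene alone was called in 12 of the 29, the partner alone in 9, both in 5 and neither in 3.

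A call in one gene of a pair and not in the other mostly came without a changed ratio. The antisense gene alone was called in 60 pairs, 13 higher and 47 lower, and in 48 of them the ratio test was not passed. The partner alone was called in 40 pairs, 28 higher and 12 lower, with 31 not passing the ratio test. The count of 29 was not firm. It was 13 without day-21 mouse 3, 16 without day-21 mouse 2, 17 without day-0 mouse 3 and 14 with an edgeR model of the interaction. In all 14 other fits run on these pairs, 8 of the 29 kept their call. These were Gm14964, AC109619.1, Gm31641, Gm15743, Gm15952, Gm2245, E430024P14Rik and 4833422C13Rik.

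The largest rise of a ratio was the single pair with calls in opposite directions. Gm14964 (chr19:6530711-6532011, minus strand) lies within Nrxn2, the gene of the cell adhesion protein neurexin-2. Whether Nrxn2 overlaps genes other than this member was not examined, and its counts carry that limit. Gm14964 had 50, 58 and 49 counts on day 0, then 122, 121 and 122 on day 21, while Nrxn2 had 7791, 12991 and 9627 and then 2906, 1681 and 2628. In normalized level the antisense gene was higher and the partner lower in every day-21 mouse than in any day-0 mouse. The log2 changes were 0.65 (SE 0.20, adjusted p = 0.0241) for Gm14964 and -2.61 (SE 0.24, adjusted p = 1.78e-05) for Nrxn2, and the log2 ratio went from between -7.76 and -7.24 to between -4.55 and -3.77, a change of 3.29 (SE 0.25, adjusted p = 1.14e-06). The call of Gm14964 itself was lost without day-0 mouse 2 (log2 change 0.62), day-21 mouse 1 (0.57) or day-21 mouse 3 (0.68), and that of the ratio was kept without each of these.

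In the other large rises of a ratio the partner was lower on day 21. AC109619.1, a gene with 1 exon block inside an intron of Macrod1, had 75, 142 and 83 counts on day 0, then 137, 248 and 158 on day 21, and its groups overlapped in normalized level. Macrod1, a mitochondrial hydrolase of ADP-ribose, was lower on day 21 (255, 403 and 294 counts, then 186, 234 and 208), and the log2 ratio rose by 1.43 (SE 0.19, adjusted p = 0.00025). Gm31641 contains Kcnj15, the gene of a potassium channel of the proximal tubule. Gm31641 had 59, 60 and 61 counts and then 79, 60 and 80, while Kcnj15 went from 10318, 14553 and 12500 counts to 7049, 5462 and 6499, and the ratio rose by 1.25 (SE 0.23, adjusted p = 0.00522).

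Gm15743 and Gm10069 were lower on day 21 by less than their partners. Gm15743 lies within Bdh1, which encodes an enzyme of ketone body use. It fell by 0.64 and Bdh1 by 1.77, and the ratio rose by 1.14 (SE 0.15, adjusted p = 0.000281). The call of Gm15743 itself was lost without day-0 mouse 2 (log2 change -0.43) and without day-21 mouse 1 or 3 (-0.60 each). It was also lost with upper-quartile scaling (-0.55) and with library size alone (-0.24). Gm10069, at the 3′ end of Pzp, a protease inhibitor, had 53, 196 and 300 counts on day 0, a wide spread that Pzp shared with 180, 824 and 1222. It had 16, 14 and 38 on day 21, beside 31, 37 and 39 for Pzp. The log2 changes were -3.59 (SE 0.60) and -4.96 (SE 0.62), and the ratio rose by 1.22 (SE 0.30, adjusted p = 0.0369), a call kept in 7 of the 14 other fits.

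Gm2245 and E430024P14Rik had lower ratios beside partners of immune cells that were higher on day 21, while the antisense gene was not called with TMM scaling. Gm2245 lies within Fyb, an adaptor of T cells and myeloid cells. It had 106, 150 and 113 counts on day 0, then 178, 235 and 262 on day 21, a log2 change of 0.30 (adjusted p = 0.159), whereas Fyb went from 32, 58 and 57 counts to 307, 375 and 391, a log2 change of 2.29. The log2 ratio went from between 0.97 and 1.68 to between -0.78 and -0.57 and fell by 2.00 (SE 0.18, adjusted p = 5.70e-06). E430024P14Rik contains Tagap, a GTPase-activating protein of activated T cells. It had 198, 223 and 200 counts and then 240, 294 and 269, with a log2 change of -0.21, while Tagap rose by 1.74 from 34, 37 and 20 counts to 106, 174 and 174. That ratio fell by 1.91 (SE 0.20, adjusted p = 2.13e-05). Scaled by library size alone, Gm2245 was called higher (0.69, adjusted p = 0.00522) and E430024P14Rik had a log2 change of 0.18. Both tested markers of T and B cells were higher on day 21, from a sum of 1.30 to 4.20 CPM to one of 7.42 to 9.31 CPM, as were the macrophage markers given above, and their part was not tested.

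In Gm15952 and 3110045C21Rik the antisense gene fell and the partner was not called with all mice and TMM scaling. Gm15952, head to head with Dcun1d1, a cofactor of protein neddylation, had 264, 318 and 341 counts on day 0, then 105, 138 and 130 on day 21, a fall by 1.89 on the log2 scale (adjusted p = 1.21e-05). Dcun1d1 had 374, 399 and 452 counts and then 538, 582 and 644, a log2 change of -0.06, and the ratio fell by 1.82 (SE 0.15, adjusted p = 1.55e-06). 3110045C21Rik, which shares 90 bases with the 3′ end of Ddr2, a collagen receptor, fell by 1.65 from 57, 80 and 73 counts to 32, 30 and 37. Ddr2 had 135, 79 and 224 counts and then 481, 241 and 545, with overlapping groups and a log2 change of 0.93 (SE 0.42, adjusted p = 0.0934). Ddr2 was called higher with the replicate block (0.99, adjusted p = 0.00156), with library size alone (1.31), with no filter, without day-0 mouse 3 (1.44) and without day-21 mouse 2 (1.24), and its change ran from 0.57 to 1.44 over the mice left out. The ratio fell by 2.57 (SE 0.39, adjusted p = 0.000887).

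The ratio of Gm5577 to H1fx, a linker histone gene, fell by 2.78 (SE 0.35, adjusted p = 0.000164). Gm5577 had 1423, 1682 and 1429 counts on day 0, then 1713, 1586 and 1694 on day 21, a log2 change of -0.42 that missed the fold of 1.5. H1fx had only 4, 1 and 0 counts and then 12, 28 and 21, so that the ratio rests on few counts of the partner. Among the other pairs with a lower ratio, 4833422C13Rik fell by 1.57 beside a log2 change of 0.08 for Ssbp2, a DNA-binding protein, and 1700084C06Rik had a change of -0.48 that was not called beside a rise of 0.69 for Tyk2, a Janus kinase. The other 17 of the 29 pairs had ratio changes between -1.63 and 0.81.

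**Figure D4:**
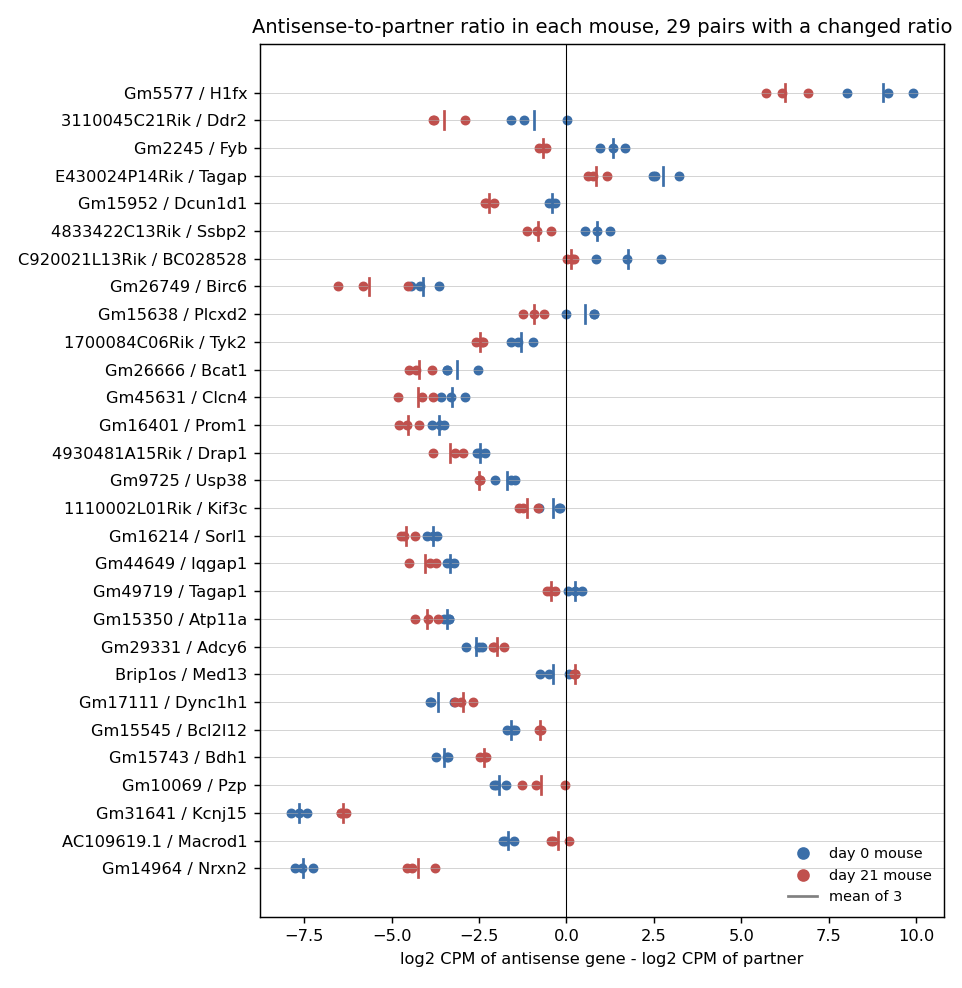
Points give, for each mouse, log2 CPM of the antisense gene minus log2 CPM of its partner in the 29 pairs whose ratio changed, blue for day 0 and red for day 21, with a tick at the mean of 3. Pairs are ordered by the change, from Gm5577 and H1fx (-2.78) at the top to Gm14964 and Nrxn2 (3.29) at the bottom, and the days do not overlap in any of the pairs.

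In members whose exons share no base with those of the partner, no exon base is annotated to both genes of the pair. AC109619.1, Gm19950 and Gm45792 lie in introns of their partners. Reads of unspliced partner RNA could fall there too, and their share was not tested. There were 8 members without shared exon bases that had a partner, and 2 further members, Gm13111 and Gm13398, had no partner. The ratio changed in 3 of the 8 pairs (37.5%), where it changed in 2.70% to 5.26% of pairs in the classes with overlap, and the class is too small to compare by more than these counts. Of the 8, 6 were lower on day 21 and 0 higher, where 15.5% of all genes were lower and 19.6% higher. Among the 6, 4 had a lower partner as well, and 2 of these share the partner Acsm1.

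Acsm1, the gene of a medium-chain acyl-CoA synthetase, holds 2 such members in its introns. Gm19950 had 3159, 3151 and 2427 counts on day 0, then 1366, 1146 and 1441 on day 21, and Gm45792 had 453, 140 and 253 and then 138, 54 and 115. In normalized level both were lower in every day-21 mouse than in any day-0 mouse, by 1.71 (adjusted p = 1.49e-05) and 2.06 (adjusted p = 0.0056) on the log2 scale. Acsm1 fell by 1.80, from 1003, 1964 and 1516 counts to 671, 657 and 552, although its highest day-0 mouse, the second, was the lowest of that group for Gm45792. Gm15848 runs toward Fcamr, an Fc receptor for IgA and IgM, and fell by 2.69 from 66, 166 and 113 counts to 21, 31 and 26 beside a fall by 3.27 for Fcamr. Gm15890, with no exon base in Herpud1, a gene of the endoplasmic reticulum stress response, but 69.5% of its bases in exons of other genes on that strand, fell by 2.62.

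Without shared exons, Gm15638 parted from Plcxd2. Gm15638 had 135, 186 and 162 counts on day 0, then 75, 56 and 79 on day 21 and fell by 1.76 (adjusted p = 0.000102). Plcxd2 had 137, 106 and 94 and then 119, 135 and 152, a log2 change of -0.32 (adjusted p = 0.245), and the ratio fell by 1.45 (SE 0.24, adjusted p = 0.00232). AC109619.1 and Gm31641 are the other pairs of this kind with a changed ratio. 1810034E14Rik fell by 0.75 (adjusted p = 0.03) beside a log2 change of -0.24 for the phosphatase gene Cdc14b. Among the members with no partner, Gm13398 (chr2:27037285-27040853, plus strand) rose from 2, 2 and 5 counts to 103, 134 and 67, a log2 change of 4.46 (SE 0.48, adjusted p = 4.61e-05), and Gm13111 fell by 1.85 from 326, 553 and 510 counts to 166, 254 and 153.

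**Figure D5:**
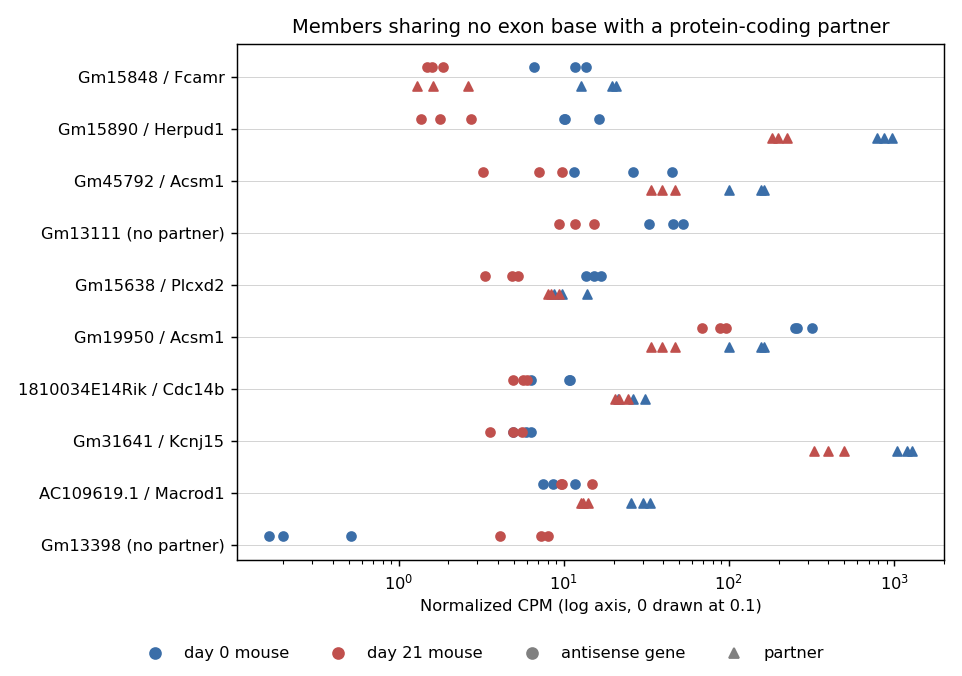
Points give the normalized CPM of each mouse on a log axis for the 10 members that share no exon base with a protein-coding partner, with circles for the antisense gene and triangles for the partner, blue for day 0 and red for day 21. Gm13398 is the only one of them called higher on day 21, and the triangles of Macrod1 and Kcnj15 part between days while the circles of their antisense genes overlap.

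In the other direction, 11 members had a partner with too few counts to be tested, although the pair shares exon bases. Gm16312 lies wholly within Nudt8, a gene of a mitochondrial Nudix hydrolase. It had 253, 447 and 261 counts on day 0, then 259, 262 and 326 on day 21, while Nudt8 had 0, 3 and 0 and then 1, 2 and 5. Tomm6os had 570, 908 and 502 counts and then 681, 964 and 909 across Prickle4, which had at most 2 in any mouse. 4930524O07Rik had between 491 and 801 counts across Dock3, which had between 3 and 9, and AC144621.2 had between 36 and 67 across Zbtb9, which had 0 in every mouse. Of the 11, 4 were called, beside 35.1% of all genes. Gm16312 and Mccc1os were lower, and Gm47079 (1.74) and Tnfsf13os were higher. Within these pairs, most counts fell on the antisense gene and few on the partner chosen by shared exon bases. Mccc1os, Tomm6os and Tnfsf13os are named after genes other than that partner, and the counts of those genes were not set beside them. The share of the reads that came from either strand was not tested.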

How the data were processed

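Kidney RNA of 3 day-0 and 3 day-21 mice was sequenced by the authors as paired-end reads, and they deposited raw counts per gene for each mouse, without normalization. The submitters' processing notes name TopHat and mm10. The counting program and its strand setting are not given in the sources used here. No column was left out (0 unmapped). Replicate numbers come from the sample titles. The design text equates day 0 with control. Totals ran from 10963849 to 14256556 counts on day 0 and from 12662200 to 14333311 on day 21. Floors and intervals cover counting error only.

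The members and lists were chosen with earlier results of these data known. Positions, exons and gene types, and the sequences printed, came from GENCODE M21 (GRCm38). The partner was the opposite-strand protein-coding gene with the most shared exon bases, then the most shared span, then the lowest identifier. Of the members, 100 had more than 1 candidate. Genes named are the 8 largest rises and falls among members called, the 6 with the highest mean count, called members with a name ending in os (with or without a digit), as, as1, ot or -ps, the 5 largest rises and falls of the ratio, pairs called in opposite directions, 3 genes on either side of the threshold, and members of the lists, without shared exon bases or with an untested partner, which were chosen after their values were seen. Gm16567 was also chosen so.

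The test of day used edgeR 4.0.16 under R 4.3.3 (filterByExpr, minimum count 10 and total 15, TMM scaling, quasi-likelihood F-test). The Benjamini-Hochberg adjustment covered 16592 genes. The ratio was tested with limma 3.58.1 (eBayes with trend, prior count 2) over 988 pairs. The reported fits held no replicate block, which was run as an alternative. With 3 mice a group, the smallest two-sided p of an exact permutation test is 0.1, so none was used. The mice are separate animals, and no pairing or batch is named. Mice of a group differed by a chi-square of between 6.83 and 23.9 per gene, so no library was a duplicate.

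The steps were tested on simulated data from these counts, with a 3-fold change in 200 of 16332 genes for day 21 against day 0. Of the changed genes, 173 were called by edgeR, 173 by DESeq2 1.42.0 and 170 by limma-voom, along with 17, 27 and 16 unchanged genes. For the ratio, with 951 pairs and 188 changed, limma called 164 and 9 unchanged pairs and the edgeR interaction 167 and 10. In the data 35.1% of genes were called, and the genes of a pair moved together. The simulation held neither feature, so it does not show how the scaling or the ratio test behaves with them. Alternatives were other scalings, filters, tools, thresholds, partner rules and prior counts, a replicate block, and each mouse left out. Figures were made in Python 3.11.15 with matplotlib 3.10.9.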

Additional observations from a re-analysis of the deposited data

How the results depend on the processing

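Strand is the main limit, as the counts of overlapping genes cannot be told apart, and a fold read from few counts (H1fx, day-0 Gm13398) is imprecise. With library size alone as the scale, members called higher and lower were 153 and 84 and partners 163 and 60. With adjusted p under 0.01 and fold over 2, the counts were 3172 for all genes, 41 and 80 for members, 45 and 58 for partners, 84 for pairs of the same direction and 12 for changed ratios. With a mean count of at least 20, members and partners called higher were 110 and 138, and with at least 100 they were 44 and 49. The lower calls and the number of members at these thresholds are not given here, so these counts do not show how the split of directions moved. Changed ratios numbered 14 with the edgeR interaction, 3 among 38 pairs tested that share no exon base, 9 without the mean-variance trend, and 13 to 32 with a mouse left out. With the partner chosen by shared span they numbered 39, and 27 of the 29 antisense genes kept their ratio call. Leaving out a mouse kept between 185 and 205 of the 221 member calls, and no member call turned its direction in any fit run. Over the 104 named genes and 14 fits, 1368 values kept direction and call, 57 lost a call, 14 gained one and 15 changed sign. In the fit with no filter, edgeR estimated infinite prior degrees of freedom (6.12 in the reported fit), so that each gene took the spread of the trend in place of its own, and its calls do not bear on the spread between mice. These 15 were Gm44588 (0.0189), E430024P14Rik (0.18), Gm31641 (0.10), A130051J06Rik (0.29) and Dcun1d1 (0.33) with library size alone, Dcun1d1 (0.0280) with the upper quartile, Gm39318 with RLE (-0.0285) and DESeq2 (-0.0288), and, with a mouse left out, Gm39318 in 3 cases (range over mice -0.309 to 0.563), A130051J06Rik in 2 (-0.330 to 0.155), Dcun1d1 in 1 (-0.170 to 0.0716) and Tirap in 1 (-0.0961 to 0.295). None of these genes was called with all mice and TMM scaling.

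Replicate numbers come from the sample titles, and no pairing by them is named. The deviations of same-numbered mice correlated at -0.02, 0.17 and 0.09. These values have no baseline, so they cannot decide whether same-numbered mice shared a block. With the replicate block, the changed ratios numbered 22, and 215 of the 221 member calls were kept.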

Other observations

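Genes with an opposite-strand name after transcription factors of kidney development or tubule identity were looked up at any level. Of 24 symbols, 16 are in the table and 11 of these have the gene type antisense, and 12 of the 16 had enough counts to be tested. The members among them are 4 (Emx2os, Hoxb3os, Hoxb5os and Hoxd3os1). Hnf4aos, across the gene of the hepatocyte nuclear factor that maintains proximal tubule identity, had 44, 107 and 59 counts on day 0, then 28, 12 and 32 on day 21, a log2 change of -2.06 (SE 0.41, adjusted p = 0.00228). Hnf1aos1 had 24, 56 and 75 counts and then 25, 43 and 38, with overlapping raw counts and a log2 change of -1.14 (SE 0.40, adjusted p = 0.0413). Lhx1os, whose gene type is lincRNA, had 92, 122 and 96 and then 61, 67 and 62, a fall by 1.27 (SE 0.20, adjusted p = 0.00048). Hotairm1, in the Hoxa cluster, rose by 1.98 (SE 0.73, adjusted p = 0.0473) on at most 16 counts in any mouse. Zeb2os (0.64, adjusted p = 0.092) and Mecomos (0.10, adjusted p = 0.842) were not called, nor were Foxd2os (0.73, adjusted p = 0.108) and Hoxa11os (0.18, adjusted p = 0.838), whose gene type is processed transcript.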
